A study of Homo sapiens with 8 samples.

Results

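The G1 cell cycle machinery was followed across 8 bead arrays of human neuroblastoma cells, through 10 genes: the cyclins CCND1, CCND2, CCND3 and CCNE1, the cyclin-dependent kinases CDK4 and CDK6, and the kinase inhibitors CDKN1B, CDKN1C, CDKN2A and CDKN2B. Every probe that the array table assigns to one of these symbols was taken, which gave 19 of 47322 probes for 10 of 31426 symbols. The related inhibitor CDKN1A is not a member and is treated with the other genes of the pathway. The list was chosen by earlier results of these arrays, with the CCND1 log2 differences in the 2 cell lines in view because they had opposite signs, so that the CCND1 values below are a description and carry no test.

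Neuroblastic SH-SY5Y cells and epithelial-like SH-EP2 cells, both descended from the SK-N-SH neuroblastoma line, had been transduced with a lentivirus carrying an shRNA against the ion channel and kinase TRPM7, or a scrambled shRNA as control. All 4 groups therefore carry a lentiviral shRNA vector and went through puromycin selection, and each holds 2 arrays. A single TRPM7 shRNA was used on the arrays, and its effects on other transcripts were not measured. Whether the duplicates come from separate cultures is not given in the sources used here, so that p-values measure the spread between these arrays, which may be technical. The study's methods name a different culture medium for each line, and cell line, medium and culture history cannot be told apart.

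In G1, mitogens raise the D-type cyclins, which activate CDK4 and CDK6. These kinases phosphorylate the retinoblastoma protein, E2F transcription factors are released, and cyclin E with CDK2 then drives entry into S phase. The INK4 inhibitors, among them CDKN2A and CDKN2B, bind CDK4 and CDK6, whereas the Cip/Kip inhibitors CDKN1B and CDKN1C act mainly on cyclin E and cyclin A complexes. Cyclin D1 and the CDK4/6 branch are well known for high activity in neuroblastoma.

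Array signals had medians of 104.75 to 119.86, and 19331 to 20904 probes per array had a detection p-value under 0.05 and are called detected here. The single TRPM7 probe (ILMN_1667047) was detected on none of the 8 arrays, with signals of 107.57 to 119.24, and the arrays therefore give no reading of the knockdown. The study's methods describe quantitative PCR for TRPM7 in both lines, and the study reports stable knockdown in both, with supplementary figures that were not seen here. By MTS assay it reports no marked effect of the knockdown on viability and proliferation in SH-EP2 cells, and none in SH-SY5Y cells. Of 10 noradrenergic markers, 9 were detected on every SH-SY5Y array and 3 or 4 on SH-EP2 arrays, and TH, which encodes tyrosine hydroxylase, was detected on none. All 10 mesenchymal markers were detected on every SH-EP2 array and 7 or 8 on SH-SY5Y arrays. In SH-SY5Y TRPM7 shRNA cells 3 noradrenergic markers fell in limma, DBH by 1.20, STMN2 by 0.58 and ISL1 by 0.45 on the log2 scale, and 0 rose, with a median difference of -0.35 over the 10. Of the mesenchymal markers there, 1 rose (LUM, 0.78) and 2 fell (SNAI2, -2.77, and VIM, -0.30), with a median of 0.03. In SH-EP2 cells 0 noradrenergic markers rose and 2 fell (median 0.03), and 1 mesenchymal marker rose and 5 fell (median -0.17). The part of these markers in the results below was not tested.

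CDK6, the kinase partner of the D cyclins, rose in TRPM7 shRNA cells of both lines, by 2.38-fold in SH-EP2 and 1.32-fold in SH-SY5Y cells. CCND3, encoding cyclin D3, fell in SH-EP2 cells to 0.801 of the control. No other tested probe of the cyclins, kinases and inhibitors passed the test in either line, and CCND1 was lower in SH-SY5Y and higher in SH-EP2 cells. Of the 18 probes other than that of CCND1, 1 was higher and 0 lower in SH-SY5Y cells at an adjusted p under 0.05 (limma, Benjamini-Hochberg over all probes), where 2.12% of all probes and 5.65% of those detected on all 8 arrays passed. In SH-EP2 cells 1 was higher and 1 lower, where 3.03% of all probes and 7.82% of those detected on all 8 arrays passed. At an unadjusted p under 0.05 the counts were 5 and 4. The median log2 difference of the 18 probes was -0.21 in SH-SY5Y and 0.06 in SH-EP2 cells, beside 0.00 and 0.01 over all probes. Over the 9 genes by their brightest probe it was -0.04 and -0.10, and both medians include probes near background. Because the list was chosen with results known, nothing is read from these shares and medians.

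The range of detection set what could be measured. Of the 19 probes, 9 were detected on all 8 arrays, and these belong to 6 genes (CCND1, CCND3, CCNE1, CDK4, CDK6 and CDKN1B). A further 5 were detected on 1 to 7 arrays, and 5 on no array. CCND2, CDKN2A and CDKN2B had no probe detected on more than 2 arrays, and CDKN1C was detected in SH-SY5Y cells only.

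**Figure D1:**
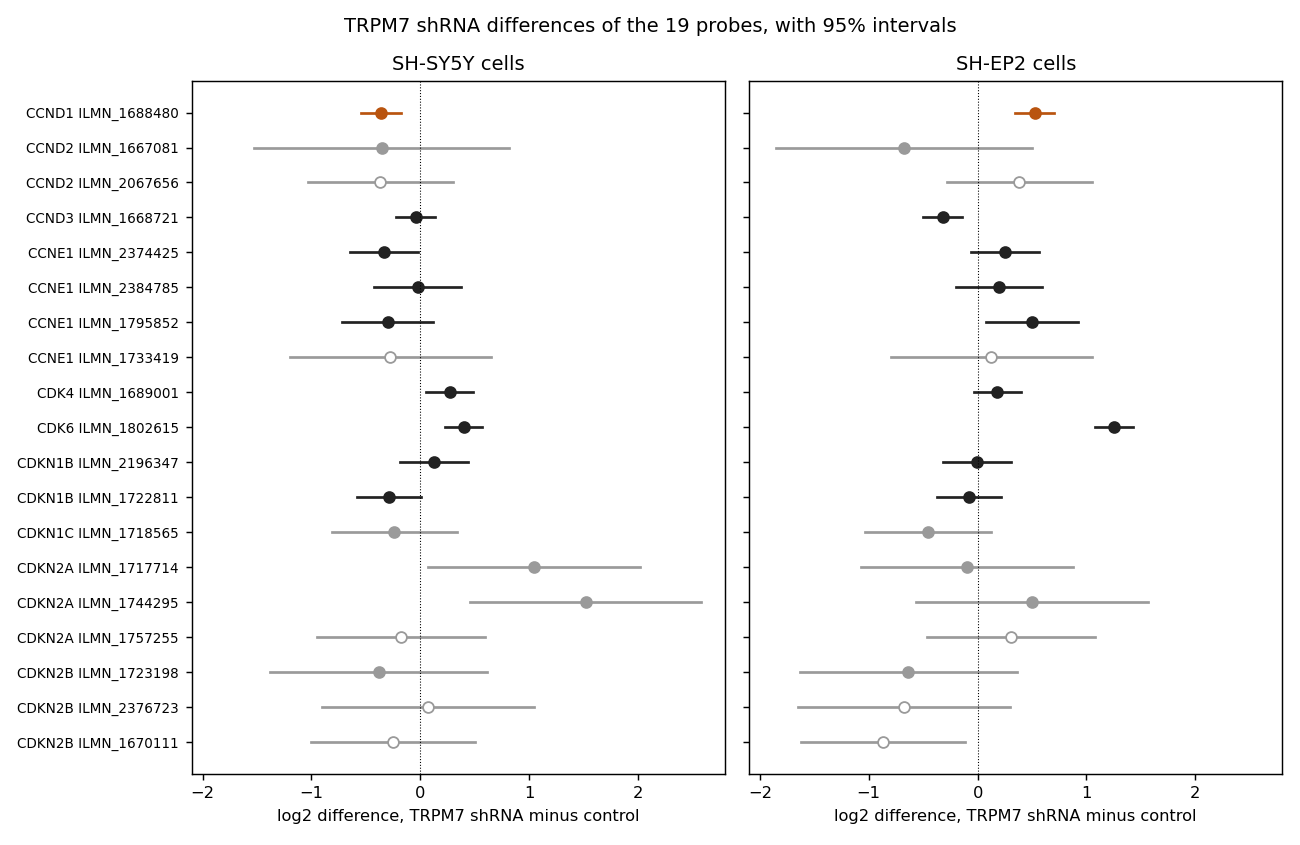
Log2 difference (TRPM7 shRNA minus control) of the 19 probes in SH-SY5Y (left) and SH-EP2 cells (right), with 95% intervals from the model. Black points were detected on all 8 arrays, grey filled points on 1 to 7, open points on none, and CCND1 is in orange because it carries no test. The drawn intervals of CCND1 are not to be read as a test, since its signs chose the list. CDK6 stands apart on the right at 1.25, and the widest intervals belong to probes near background.

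CCND1, the gene of cyclin D1, was read by a single probe (ILMN_1688480) that was detected on every array. Its log2 normalized signal was 12.96 and 13.001 on the SH-SY5Y control arrays and 12.62 and 12.61 on the SH-SY5Y TRPM7 shRNA arrays. In SH-EP2 cells it was 10.01 and 10.32 on control arrays and 10.63 and 10.75 on TRPM7 shRNA arrays. The arrays of the groups overlapped in neither line, and the order from high to low was SH-SY5Y control, SH-SY5Y TRPM7 shRNA, SH-EP2 TRPM7 shRNA and SH-EP2 control. The difference was -0.36 in SH-SY5Y cells, a fold of 0.777, and 0.52 in SH-EP2 cells, a fold of 1.44. No interval is printed here for these differences, since their signs chose the list, and the bars drawn in the figures are not to be read as a test. The opposite differences were thus both smaller than the distance between the lines, where the SH-EP2 control cells held 0.142 of the SH-SY5Y control signal.

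The separation in SH-SY5Y cells appeared after normalization between arrays. As deposited, the CCND1 signals there were 8938.5 and 7057.6 in control cells and 6873.9 and 7339.6 in TRPM7 shRNA cells, so that one control array lay between the TRPM7 shRNA arrays. In SH-EP2 cells the deposited signals did not overlap, at 1188.7 and 1328.3 against 1694.8 and 1868.6. With median scaling in place of quantile normalization the SH-SY5Y difference was -0.24, a change of over 1.5 times, and that scaling moved the median of all probes there from 0.00 to 0.09. In bulk RNA, fewer cells with a transcript and less of it per cell cannot be told apart.

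The pattern of CCND1 was not particular to it. Of the 14577 probes detected on all 8 arrays, 729 (5.0%) were lower on both TRPM7 shRNA arrays than on both control arrays in SH-SY5Y and higher on both in SH-EP2 cells. With 2 arrays a group, non-overlap in either direction is common, at 39.1% of all probes in SH-SY5Y and 42.9% in SH-EP2 cells. No common behaviour of the 729 probes is read from their number. Of the 14577 probes, 20.4% had a larger difference in size than CCND1 in SH-SY5Y and 12.3% in SH-EP2 cells. Among the 5 genes with the pair of differences nearest to that of CCND1, of 14285 probes by Euclidean distance, were LOC100130476, BEX2, LOC646144 and CLDN14, at distances of 0.024 to 0.031. BEX2 differed by -0.38 in SH-SY5Y and 0.50 in SH-EP2 cells. CLDN14, encoding a tight junction claudin, differed by -0.37 and 0.55. LOC100130476 and LOC646144 are symbols of the array table that are not current RefSeq symbols.

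CCND3 and CCND2 are the other D-type cyclins. CCND3 (ILMN_1668721) had log2 signals of 10.90 and 10.96 in SH-EP2 control cells and 10.60 and 10.62 in SH-EP2 TRPM7 shRNA cells. The TRPM7 shRNA arrays lay below both controls, and the difference was -0.32 (SE 0.085, adjusted p = 0.0445 in limma). In SH-SY5Y cells the signals were 9.71 and 9.80 in control and 9.68 and 9.73 in TRPM7 shRNA cells, which overlapped. The difference there was -0.04 (95% interval -0.22 to 0.14, adjusted p = 0.926), and that of the effects between the lines was -0.28 (adjusted p = 0.415), so that the fall of CCND3 was not shown to differ between SH-EP2 and SH-SY5Y cells. The call in SH-EP2 cells was lost when any 1 of the 4 SH-EP2 arrays was left out (adjusted p 0.157 to 0.320), with median scaling (0.129), with the replicate block (0.101) and without an intensity trend in the variance (0.535), while the difference stayed between -0.35 and -0.29.

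CCND2, encoding cyclin D2, was near background. Its brighter probe (ILMN_1667081) was detected on 2 arrays, 1 of SH-EP2 control and 1 of SH-SY5Y TRPM7 shRNA cells, with deposited signals of 104.16 to 130.8 over the 8 arrays. The other probe (ILMN_2067656) was detected on none. No fold is given for CCND2 in either line.

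**Figure D2:**
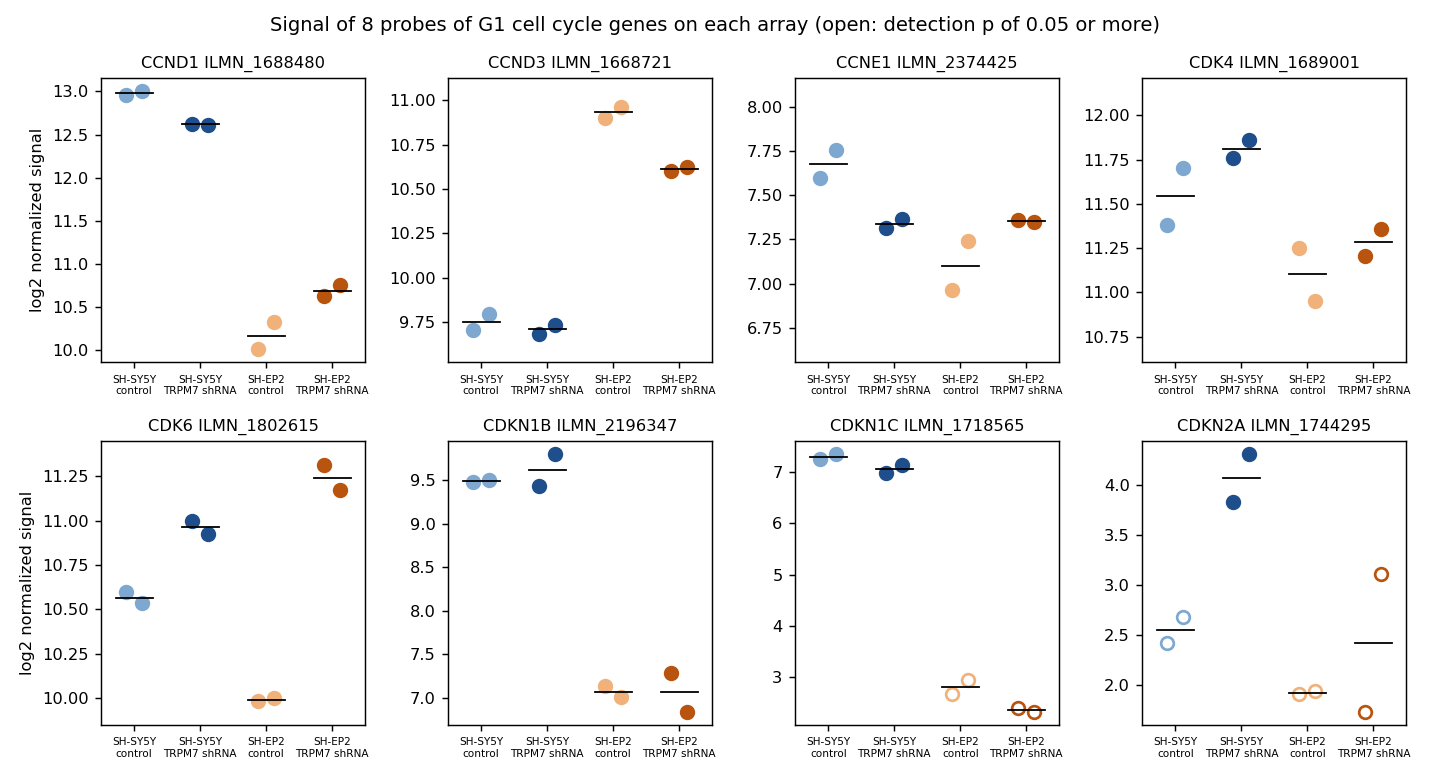
Log2 normalized signal of 8 probes on each array, with 1 panel per gene and its own axis. Points are arrays, lines are means of 2 arrays, and open points have a detection p-value of 0.05 or more. CCND1 is lower in SH-SY5Y and higher in SH-EP2 TRPM7 shRNA cells, CDK6 is higher in both, and CDKN1C is detected on the 4 SH-SY5Y arrays only.

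CDK6 (ILMN_1802615) had the largest TRPM7 shRNA difference in each line among the 9 probes of the G1 genes detected on all arrays. Its log2 signal was 9.98 and 10.00 in SH-EP2 control cells and 11.32 and 11.17 in SH-EP2 TRPM7 shRNA cells. In SH-SY5Y cells it was 10.60 and 10.54 in control and 11.0004 and 10.93 in TRPM7 shRNA cells. The TRPM7 shRNA arrays lay above the controls in both lines without overlap. The increase was 1.25 (SE 0.083, adjusted p = 1.43e-08 in limma) in SH-EP2 and 0.40 (SE 0.083, adjusted p = 0.0106) in SH-SY5Y cells. The effect in SH-EP2 cells exceeded that in SH-SY5Y cells by 0.86 (SE 0.12, adjusted p = 0.000249 for the interaction), where 1 of the 18 probes passed, beside 1.42% of all probes and 3.48% of those detected on all 8 arrays.

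Among the 14577 probes detected on all arrays, 58 had a larger increase than CDK6 in SH-EP2 cells, and 125 (0.858%) a larger difference in either direction. In SH-SY5Y cells 17.6% had a larger difference. In SH-EP2 cells the CDK6 increase ranged from 1.17 to 1.32 over the alternatives and missed the threshold only without an intensity trend in the variance (adjusted p = 0.0531). In SH-SY5Y cells it ranged from 0.36 to 0.51, and the call was lost without control replicate 2 (adjusted p = 0.0735), without TRPM7 shRNA replicate 1 (0.0981) and without the trend (0.484).

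The RefSeq promoter table (GRCh38.p14) holds 2 start sites for CDK6, which encodes the member past the test in both lines. The 250 bases before each are printed for that reason, chosen after the values were seen, at chr7:92836574-92836823 and chr7:92833960-92834209 on the minus strand. Capitals mark the SP1 core motif GGGCGG or its reverse complement CCGCCC, which is found 3 times in the upstream window and not in the other.
CDK6 window 1: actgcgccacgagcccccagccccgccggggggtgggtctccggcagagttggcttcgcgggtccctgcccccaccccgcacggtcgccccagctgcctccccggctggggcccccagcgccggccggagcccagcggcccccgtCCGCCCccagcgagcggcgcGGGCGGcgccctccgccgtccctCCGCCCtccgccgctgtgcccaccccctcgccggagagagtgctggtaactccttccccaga
CDK6 window 2: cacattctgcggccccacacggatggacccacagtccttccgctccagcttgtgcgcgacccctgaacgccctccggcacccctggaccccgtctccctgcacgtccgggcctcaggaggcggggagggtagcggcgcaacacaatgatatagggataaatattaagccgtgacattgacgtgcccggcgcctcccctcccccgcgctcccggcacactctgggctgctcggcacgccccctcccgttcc
The array table does not say which transcript the probe reads, and a match is a description of the letters only. The motif was present in 8 of the 11 windows of the 7 genes in the table (CCND3, CCNE1, CDK4, CDK6, CDKN1B, CDKN2A and CDKN2B) and in 42.6% of all 34788 windows. The E-box CACGTG was present in 1 of the 11 windows, that of CDK4, where it stands 3 times, and in 6.31% of all windows. The E2F motifs TTTCGCGC and TTTGGCGC, searched on both strands, were in 0 of the 11 windows and in 0.957% of all. CCND1, CCND2 and CDKN1C were not matched.

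CDK4 (ILMN_1689001), which shares the D cyclins with CDK6, did not pass the test in either line. Its log2 signal was 11.38 and 11.70 in SH-SY5Y control and 11.76 and 11.86 in TRPM7 shRNA cells. The groups did not overlap, and the difference was 0.27 (SE 0.10, adjusted p = 0.279). In SH-EP2 cells the signals were 11.25 and 10.95 in control and 11.21 and 11.36 in TRPM7 shRNA cells, which overlapped, with a difference of 0.18 (95% interval -0.04 to 0.40, adjusted p = 0.526). In SH-EP2 cells a difference of the size of the CDK6 increase there lies outside this interval. In SH-SY5Y cells the CDK4 interval of 0.05 to 0.49 contains the CDK6 increase there, which was 0.40.

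**Figure D3:**
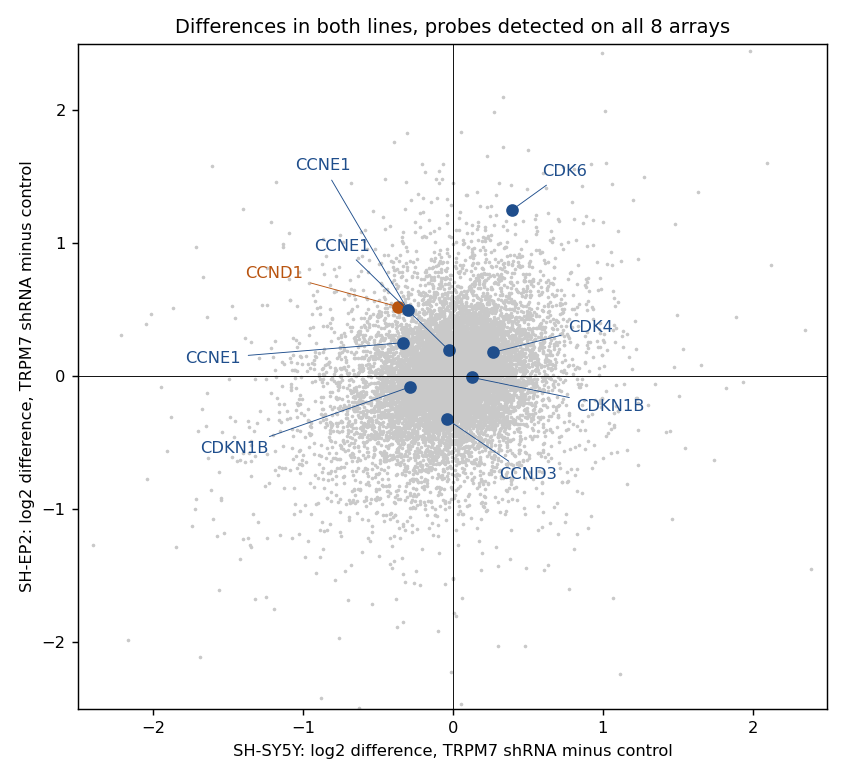
Log2 difference (TRPM7 shRNA minus control) in SH-SY5Y cells on the horizontal and in SH-EP2 cells on the vertical axis, for the probes detected on all 8 arrays. Grey points are all such probes inside the plotted range, blue points are probes of the G1 genes, and the orange point is CCND1. CDK6 lies at the upper right at 0.40 and 1.25, and CCND1 in the upper left at -0.36 and 0.52, close to a CCNE1 probe.

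CCNE1, encoding cyclin E1, was read by 4 probes. The brightest (ILMN_2374425) had log2 signals of 7.59 and 7.75 in SH-SY5Y control and 7.31 and 7.36 in SH-SY5Y TRPM7 shRNA cells. In SH-EP2 cells it had 6.97 and 7.24 in control and 7.36 and 7.35 in TRPM7 shRNA cells. The groups did not overlap in either line and lay in opposite order, as those of CCND1 did. Neither difference passed the test, at -0.34 (SE 0.15, adjusted p = 0.387) and 0.25 (SE 0.15, adjusted p = 0.544), nor did the difference between them of 0.59 (SE 0.21, adjusted p = 0.266).

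The other CCNE1 probes varied around these values. ILMN_1795852 differed by -0.30 in SH-SY5Y and 0.50 in SH-EP2 cells (adjusted p = 0.646 and 0.264), and ILMN_2384785 by -0.02 and 0.20 (0.983 and 0.775). The fourth probe, ILMN_1733419, was not detected on any array. Over the 18 tested probes of the G1 genes, 8 did not overlap between TRPM7 shRNA and control arrays in SH-SY5Y cells, 4 of them higher, where 39.1% of all probes did not overlap. In SH-EP2 cells 8 did not overlap, 4 of them higher, where 42.9% of all probes did not. Nothing is read from these counts either.

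CDKN1B, encoding p27, a brake on cyclin E complexes, did not pass the test in either line. The brighter probe (ILMN_2196347) had log2 signals of 9.48 and 9.50 in SH-SY5Y control and 9.43 and 9.80 in TRPM7 shRNA cells, with 7.14 and 7.01 against 7.29 and 6.84 in SH-EP2 cells. The groups overlapped in both lines, and the differences were 0.12 (SE 0.15, adjusted p = 0.846) and -0.01 (SE 0.15, adjusted p = 0.994). The other probe (ILMN_1722811) had 8.88 and 9.21 against 8.76 and 8.75 in SH-SY5Y cells, where the groups did not overlap. It differed by -0.29 (SE 0.14, adjusted p = 0.460) there and by -0.08 (adjusted p = 0.903) in SH-EP2 cells, so that the 2 probes had opposite signs in SH-SY5Y cells.

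CDKN1C, encoding p57, was detected on all 4 SH-SY5Y arrays and on none of SH-EP2. Its log2 signal (ILMN_1718565) was 7.24 and 7.35 in SH-SY5Y control and 6.98 and 7.13 in TRPM7 shRNA cells. These did not overlap, and the difference of -0.24 (95% interval -0.82 to 0.34, adjusted p = 0.841) did not pass the test. In SH-EP2 cells no fold can be given.

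CDKN2A encodes both the INK4 inhibitor p16 and, from another first exon, ARF, which acts in the p53 pathway. It is among the genes that the study itself listed from these arrays, so that its direction is not independent evidence. The array carries 3 probes for it. The probes ILMN_1717714 and ILMN_1744295 were detected on both SH-SY5Y TRPM7 shRNA arrays and on no other array. The log2 signal of ILMN_1744295 was 2.42 and 2.68 in SH-SY5Y control and 3.83 and 4.31 in TRPM7 shRNA cells, and that of ILMN_1717714 was 3.05 and 2.90 against 3.90 and 4.15. Both were above the controls without overlap, and neither passed the test. As a bound on the point value, the increase was 1.88-fold for ILMN_1744295 (adjusted p = 0.175 in limma). For ILMN_1717714 it was 1.83-fold (adjusted p = 0.389). The 95% intervals of the log2 differences, 0.46 to 2.58 and 0.07 to 2.02, reach down to smaller increases than these bounds. The bounds set the TRPM7 shRNA arrays against the dimmest detected signal of the control arrays or the probe's own, whichever was higher. They leave out the spread between arrays and hold for the background correction used here. Without background correction the differences of these probes were 0.20 and 0.13.

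The third CDKN2A probe, ILMN_1757255, was detected on no array, and its difference in SH-SY5Y cells was -0.18 (SE 0.37). In SH-EP2 cells no CDKN2A probe was detected, with deposited signals of 100.36 to 122.47. The windows before its 2 start sites in the promoter table are printed because the array table does not assign the probes to a transcript. They lie at chr9:21995325-21995574 and chr9:21974858-21975107 on the minus strand of GRCh38.p14, and capitals mark the SP1 core motif.
CDKN2A window 1: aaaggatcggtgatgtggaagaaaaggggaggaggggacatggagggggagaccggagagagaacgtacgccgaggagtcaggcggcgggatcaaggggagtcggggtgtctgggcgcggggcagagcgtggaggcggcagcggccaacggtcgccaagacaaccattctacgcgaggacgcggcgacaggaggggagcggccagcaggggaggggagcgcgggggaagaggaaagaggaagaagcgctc
CDKN2A window 2: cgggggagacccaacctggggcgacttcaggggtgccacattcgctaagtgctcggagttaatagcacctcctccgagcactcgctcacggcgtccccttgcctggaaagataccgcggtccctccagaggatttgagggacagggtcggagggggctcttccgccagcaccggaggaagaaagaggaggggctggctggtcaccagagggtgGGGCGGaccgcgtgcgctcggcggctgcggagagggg
The windows have an equal GC content of 66.8%, and the motif stands once, in the second. CDKN2B, the neighbouring INK4 gene encoding p15, was detected by 1 of its 3 probes (ILMN_1723198) on 1 SH-EP2 control array, with deposited signals of 95.12 to 124.08 over its probes. Its differences did not pass the test in either line, and no fold is given.

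More probes of the G1 genes passed the test between the control cells of the lines than between TRPM7 shRNA and control cells. For CDK6 the TRPM7 shRNA difference in SH-EP2 cells (1.25) was nevertheless larger in size than that between the lines (-0.58). In control cells CCND3 was 2.27-fold higher in SH-EP2 than in SH-SY5Y cells, while CCNE1, CDK4, CDK6, CDKN1B and CDKN1C were lower in SH-EP2 cells. Of the 18 tested probes 1 was higher and 8 were lower in SH-EP2 cells, where 26.2% of all probes and 60.1% of those detected on all 8 arrays passed the test. The arrays of the lines did not overlap for 14 of the 18 probes, as for 55.3% of all probes. The median difference of the 18 probes was -0.55, beside -0.02 over all probes.

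Among the Cip/Kip inhibitors, CDKN1C was lower in SH-EP2 cells (adjusted p = 6.1e-11 in limma). The point value was at least 16.8-fold, a bound because CDKN1C was not detected there. Its deposited signals were 277.05 and 233.23 in SH-SY5Y and 117.91 and 116.56 in SH-EP2 control cells, and the bound rests on the background correction: the log2 difference was -4.48 as fitted and -1.22 without background correction, and passed the test in all 15 alternatives. The CDKN1B probes differed by -2.42 (SE 0.15, adjusted p = 6.37e-11) and -1.68 (SE 0.14, adjusted p = 6.11e-09), and all SH-EP2 control arrays lay below those of SH-SY5Y. Among the cyclins, CCND3 was higher by 1.18 (SE 0.085, adjusted p = 6.63e-10), and the 3 detected CCNE1 probes were lower by 0.57 to 1.02 on the log2 scale, with adjusted p-values of 0.000414 to 0.00554. Without background correction the CDKN1B differences were -1.74 and -1.20 and those of CCNE1 -0.46 to -0.34.

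The kinases differed less. CDK6 was lower in SH-EP2 control cells, with a difference of -0.58 (SE 0.083, adjusted p = 1.12e-05), and with the increase under TRPM7 shRNA the SH-EP2 arrays reached 11.17 and 11.32, above all SH-SY5Y arrays. CDK4 differed by -0.44 (SE 0.10, adjusted p = 0.00251). The CDK4 call was lost without SH-EP2 control replicate 2 (adjusted p = 0.105), without SH-SY5Y control replicate 2 (0.0799) and without an intensity trend (0.196), and that of the brightest CCNE1 probe without SH-EP2 control replicate 1 (0.0990), without SH-SY5Y control replicate 2 (0.0517) and without the trend (0.0648). For CDKN2A, CDKN2B and CCND2 no probe passed. CDKN2B ILMN_1723198 was detected on 1 of 2 SH-EP2 control arrays, and the bound on its point value was 1.01-fold higher there (adjusted p = 0.303). The 95% interval of its log2 difference, -0.23 to 1.77, spans both directions.

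**Figure D4:**
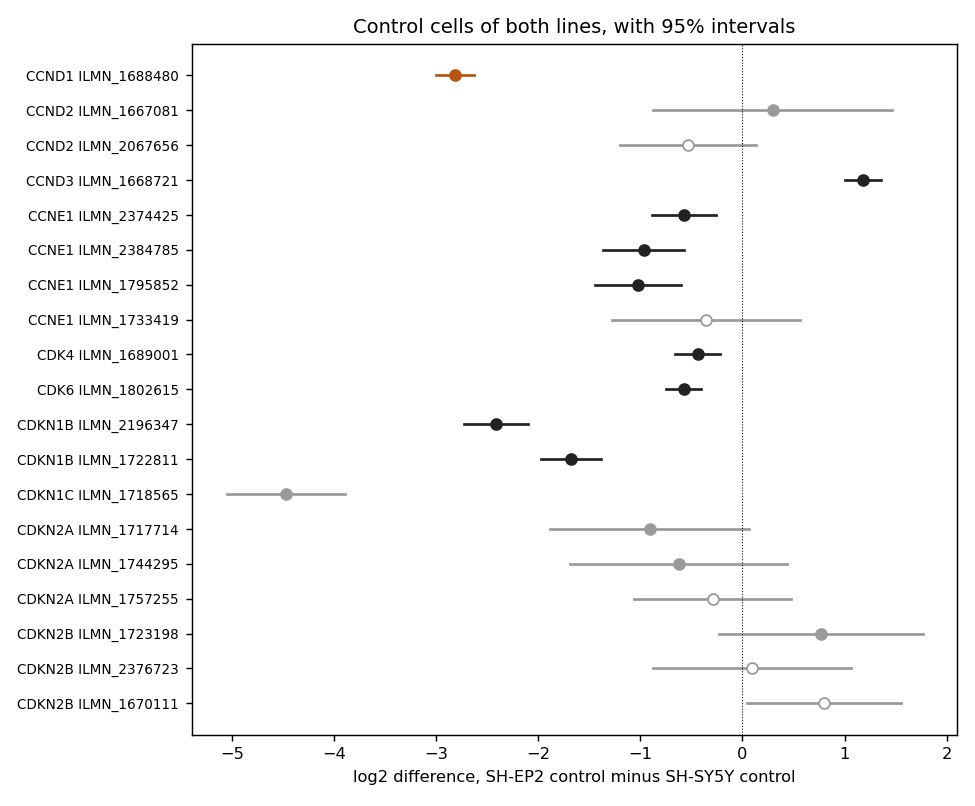
Log2 difference between control cells (SH-EP2 minus SH-SY5Y) of the 19 probes, with 95% intervals. Black points were detected on all 8 arrays, grey filled points on 1 to 7, open points on none, and CCND1 (orange, -2.81) carries no test. Of the probes detected on all 8 arrays, CCND3 alone lies to the right of 0. The CDKN1C point at -4.48 is the fitted value of a probe not detected in SH-EP2 cells.

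The wider pathway was followed through 55 further genes in 5 lists, some of which share a gene, each gene given by its brightest probe. In SH-SY5Y cells 2 of the 55 were higher and 3 lower, and in SH-EP2 cells 1 was higher and 2 were lower, where 2.12% and 3.03% of all probes, and 5.65% and 7.82% of those detected on all 8 arrays, passed. At an unadjusted p under 0.05 there were 13 in each line. The median difference over the 55 was 0.05 and -0.02. CDKN1A, encoding p21, a Cip/Kip inhibitor and p53 target, was the single gene of the lists that rose in both lines. It rose by 0.44 (adjusted p = 0.00232) in SH-SY5Y and 0.52 (adjusted p = 0.000351) in SH-EP2 cells, and these effects differed by 0.08 (adjusted p = 0.877). The array has another CDKN1A probe, which was detected on no array, and with the mean over both probes neither call held (0.07, adjusted p = 0.922, and 0.53, adjusted p = 0.0735).

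Of the 3 other kinase inhibitors, CDKN2C, encoding the INK4 protein p18, fell in SH-SY5Y cells by 0.84 on the log2 scale (adjusted p = 0.000126), a call lost with the mean over its probes (-0.41, adjusted p = 0.512). It differed by -0.05 (adjusted p = 0.934) in SH-EP2 cells, and the effects differed between the lines by 0.79 (adjusted p = 0.0104). CDKN2D, encoding p19, differed by -0.43 and -0.54 and did not pass the test. Of the 11 other cyclins, kinases and their activators, 0 passed in SH-SY5Y cells in limma (1 at an unadjusted p under 0.05), and CDK2, the partner of cyclin E, fell in SH-EP2 cells by 0.51 on the log2 scale (adjusted p = 0.00649). The effects on CDK2 were not shown to differ between the lines (adjusted p = 0.112).

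Among 9 ubiquitin ligase components, FBXW7, which directs cyclin E to degradation, rose in SH-SY5Y cells by 0.58 (adjusted p = 0.0339 in limma). That call was lost with the mean over its probes (0.44, adjusted p = 0.567). In SH-EP2 cells FBXW7 differed by 0.39 (adjusted p = 0.192), and its effects were not shown to differ between the lines (adjusted p = 0.824). CKS1B, the cofactor of SKP2 in the degradation of p27, fell in SH-EP2 cells by 0.45 on the log2 scale (adjusted p = 0.00317). It differed by -0.21 in SH-SY5Y cells (adjusted p = 0.319), and its effects were not shown to differ between the lines (adjusted p = 0.499). Of the 13 retinoblastoma family and E2F genes, 0 passed in either line (1 in each at an unadjusted p under 0.05). E2F1 differed by -0.76 in SH-SY5Y (adjusted p = 0.210) and 0.83 in SH-EP2 cells (adjusted p = 0.125), and the difference of the 2 effects passed, at 1.59 (SE 0.38, adjusted p = 0.0396). Of 22 E2F targets, MCM2, a subunit of the replicative helicase, and GINS2, which helps to activate it, fell in SH-SY5Y cells by 0.56 (adjusted p = 0.0171) and 0.36 (adjusted p = 0.0403) on the log2 scale, 20 did not pass, and 0 passed in SH-EP2 cells in limma (5 at an unadjusted p under 0.05). In SH-EP2 cells MCM2 differed by -0.32 (adjusted p = 0.244) and GINS2 by -0.16 (adjusted p = 0.487). For 0 of the 22 targets did the difference of the effects between the lines pass. The median over the 22 targets was 0.01 in SH-SY5Y and -0.04 in SH-EP2 cells.

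Several of these calls were lost when 1 array was left out, though each of their differences kept its sign then. The difference of GINS2 in SH-SY5Y cells stayed between -0.39 and -0.32, and that of FBXW7 between 0.49 and 0.67. That of CKS1B in SH-EP2 cells stayed between -0.48 and -0.43, while the E2F1 difference between the lines ranged more widely, from 1.21 to 1.97. GINS2 passed in 5 and FBXW7 in 8 of the 17 alternatives, and both calls were lost without any 1 of the SH-SY5Y arrays or either SH-EP2 TRPM7 shRNA array, that of GINS2 also without either SH-EP2 control array. MCM2 passed in 13, and not without SH-SY5Y control replicate 2 (adjusted p = 0.189) or TRPM7 shRNA replicate 2 (0.191). CDKN1A passed in 14 in SH-SY5Y cells, and not without TRPM7 shRNA replicate 1 (0.0524). CDK2 passed in 13 in SH-EP2 cells, and not without control replicate 2 (0.167) or TRPM7 shRNA replicate 2 (0.117), and CKS1B passed in 14, and not without control replicate 1 (0.0591) or TRPM7 shRNA replicate 2 (0.0556). The difference between the lines passed for E2F1 in 7 of 16 alternatives, and of the 8 arrays only SH-EP2 control replicate 2 and SH-SY5Y TRPM7 shRNA replicate 2 could be left out without losing it. The E2F1 difference was 0.49 without background correction. That of CDKN2C passed in 11 of 16, and not without SH-EP2 control replicate 1 (0.0748) or TRPM7 shRNA replicate 2 (0.100).

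Between the control cells of the lines, 9 of the 55 genes were higher and 27 lower in SH-EP2 cells, where 26.2% of all probes and 60.1% of those detected on all 8 arrays passed, and nothing is read from these counts. Of the 22 E2F targets 2 were higher and 16 lower, with a median difference of -0.73. Among these targets CDC25A, a phosphatase that activates CDK2, differed by -1.78, while TK1, encoding thymidine kinase, was higher by 0.63. Of the 13 retinoblastoma family and E2F genes 2 were higher and 5 lower, with a median difference of 0.19. In that list E2F2 differed by -2.1 and RB1 by 0.58. CDKN1A was higher in SH-EP2 cells by 1.45 (adjusted p = 5.38e-12; 0.158 with the mean over both probes) and CDKN2C lower, at -1.52 (adjusted p = 1.02e-09).

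**Figure D5:**
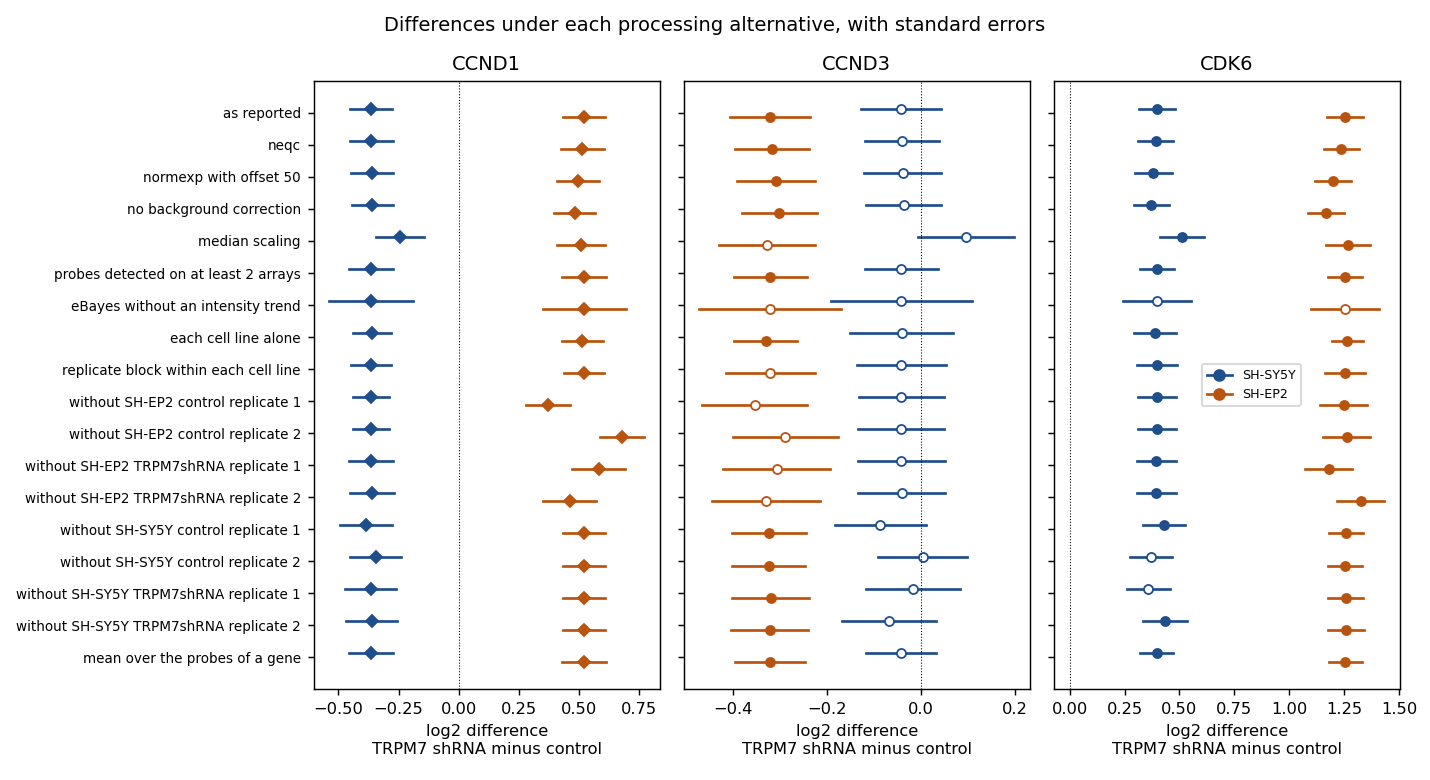
Log2 difference (TRPM7 shRNA minus control) of CCND1, CCND3 and CDK6 as reported and under each processing alternative, in SH-SY5Y (blue) and SH-EP2 cells (orange), with standard errors as bars. Filled circles passed an adjusted p of 0.05 and open circles did not. CCND1 (diamonds) carries no test, and its bars are not to be read as one. CCND1 stays below 0 in SH-SY5Y and above 0 in SH-EP2 cells in all rows, and the CCND3 circle in SH-EP2 cells is open in 7 of them. All rows reuse the arrays on which the CCND1 signs chose the list, so that its kept sign is no independent support.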

How the data were processed

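RNA of 8 cell samples was hybridised to Illumina HumanHT-12 v4 arrays, which limits each group to 2 values. The authors extracted bead signals with GenomeStudio 2011.1, and the deposited table holds, for 47322 probes, an intensity on a linear scale that is not normalized and a detection p-value per array. It gives a symbol for 44052 probes. The study's methods name Robust-Multi-Array normalization. Here the RMA background model, quantile normalization over the 8 arrays and log2 were applied, with no filter. Differences were fitted with limma 3.58.1 in R 4.3.3 (a model of 4 groups, moderated variances that follow the signal level, two-sided tests, Benjamini-Hochberg over all probes, threshold 0.05). The procedure was tested on simulated arrays.

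Members and gene lists were chosen with earlier results of these data known. All probes of the 10 genes are given, and CCND1 without a test. Genes of the other lists are represented by their brightest probe (mean log2 signal) and named where they passed in a knockdown comparison, with a few added for the comparison of the lines after their values were seen. Probes not detected (detection p-value of 0.05 or more) on either array of a group give a bound on the point value of the fold. The bound leaves out the spread between arrays. Motifs were searched in 250 bases before RefSeq start sites. The alternatives tried were other background corrections (neqc with an offset of 16, normexp with an offset of 50, or none), median scaling, a filter to probes detected on at least 2 arrays, variances without the trend, separate fits for each line, a replicate block, probes averaged by gene, and the omission of each array in turn. Single values of some genes are not reported here.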

Additional observations from a re-analysis of the deposited data

Results flagged for a closer look

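CDK6 was singled out because its TRPM7 shRNA effect differed between the cell lines by a test of the difference itself. The log2 increase in SH-EP2 cells exceeded that in SH-SY5Y cells by 0.86 (limma interaction, adjusted p = 0.000249), with both TRPM7 shRNA arrays above both control arrays in each line. Over the alternatives the value ranged from 0.75 to 0.93, and the test was passed in 15 of 16.

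CCND1 was singled out because both TRPM7 shRNA arrays lay below the controls in SH-SY5Y and above them in SH-EP2 cells, with a difference of 0.89 between the effects (0.74 to 1.04 over the alternatives). This difference was not tested, since the direction of CCND1 chose the gene list.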

How the results depend on the processing

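CCND1 kept its sign in both lines under all 17 alternatives, at -0.39 to -0.24 in SH-SY5Y and 0.37 to 0.68 in SH-EP2 cells. The alternatives reuse the arrays on which these signs chose the list, so that the kept sign is no independent support. Without an intensity trend in the variance, 0 of the 18 tested probes passed in SH-SY5Y cells (1 as reported), in SH-EP2 cells (2) and in the difference of the lines (1), and 0 of the 55 other G1 and S phase genes passed in either line (5 and 3 as reported). Leaving out 1 array gave 0 to 1 of the 18 probes in SH-SY5Y cells (0 without control replicate 2 or TRPM7 shRNA replicate 1) and 1 to 2 in SH-EP2 cells (1 without any SH-EP2 array). It gave 2 to 4 of the other genes in SH-SY5Y and 1 to 4 in SH-EP2 cells, lowest without control replicate 2 or TRPM7 shRNA replicate 1, and without TRPM7 shRNA replicate 2, respectively. Median scaling gave 1 of the 18 probes in SH-EP2 cells, and each line fitted alone gave 5 of the other genes there. The causes were not tested. CDKN2C, whose effect differed between the lines by 0.79, differed by -0.067 (adjusted p = 0.973) with the mean over its probes, which puts a detected probe together with dimmer ones. In 43 further cases a value that passed in neither setting changed sign.

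No pairing of the arrays by replicate number was seen, as deviations of arrays with the same number correlated at -0.11 in SH-SY5Y and -0.0044 in SH-EP2 cells over 14577 probes. Pairing is not excluded, since a shared effect that is small or removed by normalization would not show in these values. With the replicate block 1 of the 18 probes passed in SH-EP2 cells and 3 of the other genes in SH-SY5Y cells. A crossed pairing in SH-SY5Y cells, chosen after seeing the data, gave 1 of the 18 probes, 7 of the other genes and 1318 of all probes.

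Over all probes, 1003 passed in SH-SY5Y, 1433 in SH-EP2 cells and 670 in the difference of the lines. Without the trend these were 64, 102 and 23. They fell to 637 without SH-SY5Y control replicate 2, to 621 without TRPM7 shRNA replicate 1, to 672 to 782 without an SH-EP2 array, and in the difference to 400 to 418 without SH-EP2 control replicate 2 or either SH-EP2 TRPM7 shRNA array. Each line alone gave 2589 in SH-EP2 cells, and normexp and no background correction gave 1153 and 1246 in the difference. Median scaling turned the split of higher and lower probes in SH-SY5Y cells from 386 and 617 to 553 and 284. Genes near background, among them TRPM7, CCND2 and CDKN2B, could not be measured at these signals.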
